A study of Mus musculus with 6 samples.

Results

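The genes described here are those of the erythropoietin (EPO) signalling route from the cell surface to its targets in the nucleus. The rule that chose them lists symbols and sets no threshold on a measured value, though it was written with earlier results of these data known. The symbols are *Epor*, *Jak2*, *Stat5a*, *Stat5b*, *Cish*, *Socs1*, *Socs2*, *Socs3*, *Pim1* and *Osm*. Of these 10 genes, 9 had values among the 12101 genes of the table, and *Socs1* had none, so its expression was not analysed here. All 9 passed the filter on low values of at least 1 CPM (reads per 1000000 reads of the normalized library size) in at least 3 libraries.

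RNA was sequenced from adult megakaryocyte–erythroid progenitors (MEPs), the bone marrow precursors that give rise to red cells and platelets, sorted from *Nanog* transgenic mice labelled as strain CD-1. Both groups carried *R26-M2rtTA* and *Col1a1-tetO-Nanog*, in which the dox-dependent activator is made from the *Rosa26* locus and drives a *Nanog* cassette placed downstream of *Col1a1*. The dox-treated group (n = 3) received doxycycline in the drinking water for 5 days, and the untreated group (n = 3) did not. The activator is not restricted to blood, and no mice given dox without the transgene were analysed here, so effects of NANOG within the MEPs, NANOG elsewhere in the mouse and dox itself cannot be told apart. Whether each replicate came from its own mouse or from a pool is not given in the sources used here, and p-values then measure only the spread between these libraries, which may be technical.

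EPO binds its receptor on erythroid progenitors and activates the kinase JAK2, which is bound to the receptor's tail. JAK2 phosphorylates the receptor and the transcription factors STAT5A and STAT5B, which enter the nucleus and switch on survival genes together with their own brakes, the CIS and SOCS proteins. Signalling of this kind acts through phosphorylation, so mRNA levels give the amount of message for each component and not the activity of the route.

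Between 11264803 and 16153600 reads per library fell on the listed genes, so that 1 read was worth 0.0642 to 0.091 CPM and the floor of 3 reads lay at 0.193 to 0.273 CPM. *Nanog*, the induced gene, had 15959 to 19609 reads in the dox-treated libraries and 1 to 13 in the untreated ones. Dox-treated replicate 3 stood apart from the other libraries, with a score of −51.7 on the second principal component of all genes against −4.83 to 20.2 in the other 5, and results are therefore also given without it where that changes a call of these 9 genes or of a named pathway gene, or moves a log2 fold change of the 9 genes by over 1.5 times. The summed level of 20 erythroid markers was 7056 to 11846 CPM with dox, highest in replicate 3, and 9984 to 10500 CPM without. *Car1*, *Car2* and *Aqp1* were the largest parts of this sum. *Car1* alone was at 1460, 1280 and 3359 CPM in dox-treated replicates 1 to 3 and at 2034 to 2506 CPM without. Of the 20 genes 4 fell, *Epb42*, *Ank1*, *Ermap* and *Add2*, and none rose (limma, with 6 lower and 3 higher at an unadjusted p under 0.05). Without overlap between the groups 7 were lower and 1, *Aqp1*, was higher. Among all genes tested, 4.59% were higher and 3.18% lower at a limma adjusted p under 0.05, and 29.2% had an unadjusted p under 0.05. Without overlap, 17.7% of all genes tested were higher and 18.2% lower. The summed level of 17 granulocyte and monocyte markers was 545 to 787 CPM with dox and 2629 to 6014 CPM without, and 14 of these 17 genes fell. Of 15 megakaryocyte markers, 12 had values, and their sum was 216 to 554 CPM with dox, lowest in replicate 3, and 135 to 178 CPM without. Of these 12 genes 4 rose and *Vwf* fell, and *Itga2b* alone made up 319 and 314 CPM of the sum in dox-treated replicates 1 and 2. Of 13 mast cell and basophil markers, 6 had values, which summed to 358 to 538 CPM with dox and 159 to 229 CPM without, and 3 of the 6 rose. *Cd34*, whose protein the MEP gate excludes, was at 62.8 to 172 CPM with dox and 23.8 to 57.7 CPM without (limma adjusted p = 0.11). *Fcgr3* (CD16), also used in the gate and listed among the granulocyte and monocyte markers, went the other way. It was at 6.13 to 11.3 CPM with dox and 11.4 to 28.0 CPM without (limma adjusted p = 0.15). *Ly6a* (Sca1), whose protein is excluded as well, had no values. Of 10 stem and multipotent progenitor markers, 8 had values, which summed to 159 to 353 CPM with dox and 76.6 to 149 CPM without. None of the 8 passed (limma, with 4 higher at an unadjusted p under 0.05). Of 6 eosinophil markers, 2 had values, which both fell and summed to 2.16 to 4.49 CPM with dox and 12.8 to 18.1 CPM without. Of 13 lymphoid markers, 9 had values, which summed to 20.5 to 84.9 CPM with dox and 21.6 to 28.0 CPM without, and none of the 9 passed. The part of these shifts in the levels below was not tested, and in a bulk library fewer cells of a type and less RNA per cell cannot be told apart.

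Across the 9 genes, *Socs2* rose with dox and no gene fell (limma, Benjamini–Hochberg adjusted p under 0.05 over 12088 genes). Of all genes tested, 4.59% were called higher and 3.18% lower, 7.77% in all, and 1 call among 9 genes is not set apart from that background. At an unadjusted p under 0.05, *Socs2* and *Socs3* were higher and *Epor* was lower, where 29.2% of all genes tested fell under that value. The median log2 fold change of the 9 genes was 0.28, beside −0.03 over all genes tested. The 3 dox-treated values did not overlap the 3 untreated ones in 5 of the 9 genes, higher in *Stat5a*, *Stat5b*, *Socs2* and *Socs3* and lower in *Epor*, where 17.7% of all genes tested were higher and 18.2% lower without overlap. For a single gene, the exact permutation test of 3 libraries against 3 cannot give a two-sided p below 0.1, and it gave that p for each of these 5 genes.

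**Figure D1:**
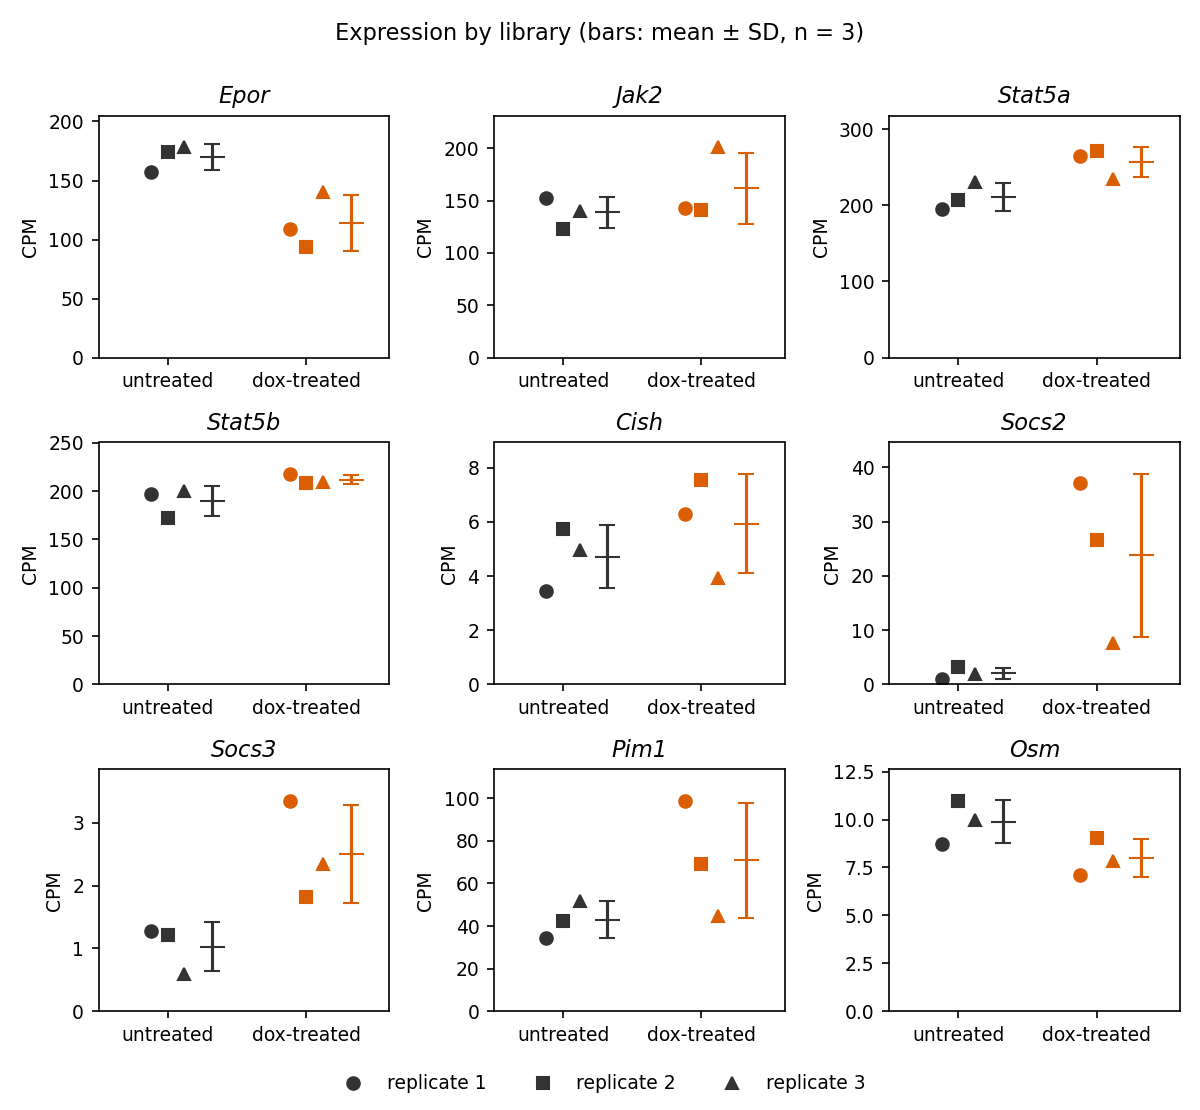
Level of each gene in CPM (y axis, linear from 0, its own range in each panel) in the 3 untreated (black) and 3 dox-treated (orange) libraries, with the replicate number as the symbol and the mean ± SD (n = 3) beside the points. *Epor* lies lower in every dox-treated library (93.3 to 140.0 CPM) than in any untreated one (157 to 178 CPM), and *Socs2* lies higher (7.60 to 37.2 against 1.05 to 3.14 CPM).

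*Epor*, the receptor through which EPO supports survival and maturation of committed erythroid progenitors, was at 109, 93.3 and 140.0 CPM in dox-treated replicates 1 to 3 and at 157, 174 and 178 CPM in the untreated ones. Every dox-treated library lay below every untreated one, and replicate 3 was the dox-treated library nearest to them. The means were 114 ± 23.7 and 170.0 ± 11.1 CPM (SD, n = 3 each). The log2 fold change was −0.59 (SE 0.17, 95% interval −1.01 to −0.17), or 1.51-fold more message without dox, and it did not pass the threshold (limma adjusted p = 0.087, unadjusted p = 0.014). Without dox-treated replicate 3 the log2 fold change was −0.75, and *Epor* then passed (limma adjusted p = 0.018). These values rest on 1253 to 2360 reads per library.

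The gene lies on the reverse strand at chr9:21763343-21768020 (NCBIM37). Its promoter is shown because GATA1, the main erythroid GATA factor, is known to drive *Epor*. The window runs from 250 bases before the start of transcription to 50 after it (RefSeq, GRCm38.p6, chr9:21963527-21963826, reverse strand, printed 5′ to 3′). Capitals mark the single match to GATAA, here on the opposite strand, at bases 197 to 201 of the window.
Epor promoter: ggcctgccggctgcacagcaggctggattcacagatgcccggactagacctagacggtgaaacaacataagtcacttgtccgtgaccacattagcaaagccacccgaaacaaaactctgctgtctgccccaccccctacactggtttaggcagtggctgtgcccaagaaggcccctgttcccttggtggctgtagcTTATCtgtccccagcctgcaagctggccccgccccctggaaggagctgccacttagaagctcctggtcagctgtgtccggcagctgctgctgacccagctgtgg
Of 32851 RefSeq promoter windows of this length, 25.4% hold a GATAA match on either strand. The *Epor* window holds no match to TTCNNNGAA, the palindrome that STAT5 binds, which 8.3% of the windows hold.

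The genes whose pattern was most like *Epor*, by Pearson's r of log2 CPM over the 6 libraries, were *3110056O03Rik* (r = 0.997), *Pspc1* (r = 0.995) and *Rpp40* (r = 0.994). The log2 fold changes of these 3 were −0.69, −0.45 and −0.50. The search covered the 9992 genes whose mean reached 5 CPM. With 6 libraries in 2 groups these values of r are a description and carry no test.

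*Jak2*, the kinase that the EPO receptor activates, was at 143, 141 and 201 CPM with dox and at 153, 123 and 140.1 CPM without. Replicates 1 and 2 with dox lay within the untreated range, and replicate 3 lay above all other libraries. The means were 162 ± 34.1 and 139 ± 15.0 CPM (SD, n = 3 each), a log2 fold change of 0.21 (SE 0.18, 95% interval −0.23 to 0.65) that did not pass (limma adjusted p = 0.47). Without dox-treated replicate 3 the log2 fold change was 0.04. The gene lies on the forward strand at chr19:29326318-29387570 (NCBIM37).

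Within a library, the ratio of *Epor* to *Jak2* in CPM was 0.765, 0.662 and 0.697 in dox-treated replicates 1 to 3 and 1.03, 1.42 and 1.27 in the untreated ones. The groups did not overlap, and this ratio put dox-treated replicate 3 between the other dox-treated libraries, and both genes were at their highest dox-treated level there. The ratio was computed after the levels of both genes had been seen and was not tested.

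*Stat5a*, one of the paired transcription factors that carry the signal to the nucleus, was at 265, 271 and 234 CPM with dox and at 195, 207 and 230.2 CPM without. The groups did not overlap, though the lowest dox-treated library, replicate 3, was close to the highest untreated one. The means were 257 ± 19.5 and 211 ± 17.9 CPM (SD, n = 3 each), a log2 fold change of 0.28 (SE 0.12, 95% interval −0.01 to 0.57) that did not pass (limma adjusted p = 0.18).

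*Stat5b*, its close relative and neighbour on the chromosome, was at 218, 208 and 209.7 CPM with dox and at 197, 172 and 200.5 CPM without. The dox-treated libraries were tightly grouped and lay above all untreated ones. The means were 212 ± 4.99 and 189.7 ± 15.7 CPM (SD, n = 3 each), and the log2 fold change was 0.16 (SE 0.11, 95% interval −0.10 to 0.42, limma adjusted p = 0.35). *Stat5a* lies at chr11:100720665-100746483 on the forward strand and *Stat5b* at chr11:100642045-100712038 on the reverse strand (NCBIM37). Of the distinct 50-base stretches in the coding transcripts of *Stat5a*, 14.7% were also found in another gene, most of them in *Stat5b*, and for *Stat5b* the share was 11.1%, most of them in *Stat5a*. Part of the reads could thus be split between these genes. An exon stretch of 72 bases of *Stat5a* also overlaps *Stat3* on the other strand. The ratio of *Stat5a* to *Stat5b* in CPM was 1.12 to 1.30 with dox and 0.990 to 1.21 without, and these ranges overlapped.

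**Figure D2:**
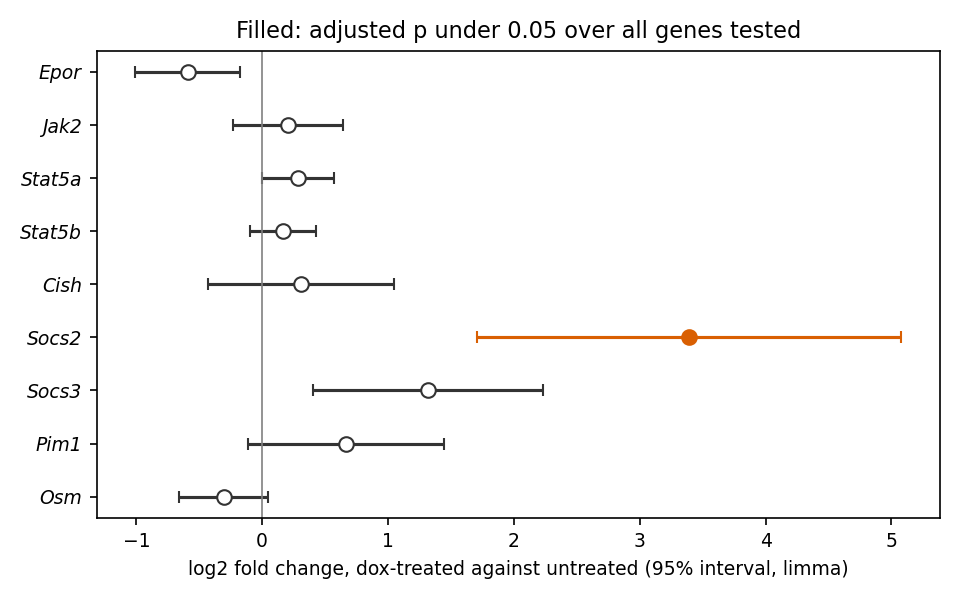
Log2 fold change of dox-treated against untreated libraries (x axis, points) with its 95% interval from limma (bars) for the 9 genes (y axis), filled where the adjusted p over all genes tested is under 0.05. *Socs2* is the one filled point, at 3.40, and the intervals of *Epor* (−1.01 to −0.17) and *Socs3* (0.41 to 2.23) also leave out 0.

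The brakes of the route were led by *Socs2*, which encodes a SOCS box protein best known for restraining STAT5 downstream of growth hormone. It was at 37.2, 26.5 and 7.60 CPM in dox-treated replicates 1 to 3 and at 1.05, 3.14 and 1.96 CPM in the untreated ones, from 505, 356 and 118 reads and 13, 42 and 21 reads. All dox-treated libraries lay above all untreated ones, and replicate 3 was the lowest of them. The means were 23.8 ± 15.0 and 2.05 ± 1.05 CPM (SD, n = 3 each). The log2 fold change was 3.40 (SE 0.69, 95% interval 1.71 to 5.08), or 10.5-fold (3.27 to 33.8), and it passed the threshold (limma adjusted p = 0.042). Without dox-treated replicate 3 it was 16.9-fold (limma adjusted p = 0.012). The fold lay between 7.63 and 16.9 with each of the 6 libraries left out in turn, and leaving out any one of the other 5 ended the call, with limma adjusted p-values of 0.12 and 0.15 without dox-treated replicates 1 and 2, and of 0.11, 0.087 and 0.12 without untreated replicates 1, 2 and 3.

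*Socs2* lies on the reverse strand at chr10:94847996-94879814 (NCBIM37). Of the distinct 50-base stretches in its coding transcripts, 6.15% were also found in another gene, most of them in *Gm9847*, and *Gm9847* had no values here. In each library the level of *Socs2* was set against that of *Epor*, and the ratio was 0.341, 0.284 and 0.0543 in dox-treated replicates 1 to 3 and 0.00667, 0.0180 and 0.0110 in the untreated ones. The ratio was lowest in replicate 3 among the dox-treated libraries, and there too it lay above every untreated value. It was computed after both levels had been seen and was not tested.

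*Cish* and *Socs3* encode 2 further brakes, CIS, which competes with STAT5 for the receptor, and SOCS3, which blocks JAK activity at several cytokine receptors. Their promoters are shown because *Cish* is the textbook direct target of STAT5. Capitals mark matches to TTCNNNGAA in windows of the same kind as for *Epor* (RefSeq, GRCm38.p6, 5′ to 3′), at chr9:107296409-107296708 on the forward strand for *Cish* and at chr11:117969317-117969616 on the reverse strand for *Socs3*.
Cish promoter: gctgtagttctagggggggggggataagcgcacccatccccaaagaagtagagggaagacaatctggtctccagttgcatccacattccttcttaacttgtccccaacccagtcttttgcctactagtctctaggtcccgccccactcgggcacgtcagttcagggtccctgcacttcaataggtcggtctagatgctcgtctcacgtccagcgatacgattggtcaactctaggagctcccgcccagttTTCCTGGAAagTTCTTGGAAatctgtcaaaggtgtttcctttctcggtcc
Socs3 promoter: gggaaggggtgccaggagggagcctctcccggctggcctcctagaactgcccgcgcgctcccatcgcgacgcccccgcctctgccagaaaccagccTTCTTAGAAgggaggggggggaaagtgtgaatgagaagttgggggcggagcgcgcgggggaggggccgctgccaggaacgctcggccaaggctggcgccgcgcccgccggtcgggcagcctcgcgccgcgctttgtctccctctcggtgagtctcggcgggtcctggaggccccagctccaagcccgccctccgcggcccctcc
The *Cish* window holds 2 matches, TTCCTGGAA at bases 251 to 259 and TTCTTGGAA at bases 262 to 270, just past the annotated start. Of all promoter windows, 8.3% hold at least 1 such match and 0.457% hold 2 or more. The *Socs3* window holds 1 match, TTCTTAGAA at bases 97 to 105. The windows of *Jak2*, *Stat5a*, *Stat5b*, *Socs1* and *Pim1* hold no such match. The set of windows used had none for *Socs2* or *Osm*, so the promoters of these genes were not searched. A match describes the sequence and does not show a site that is used.

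*Cish* was at 6.30, 7.56 and 3.95 CPM with dox and at 3.46, 5.73 and 4.96 CPM without. The groups overlapped, and dox-treated replicate 3 lay below 2 of the untreated libraries. The log2 fold change was 0.31 (SE 0.30, 95% interval −0.43 to 1.05), which did not pass (limma adjusted p = 0.52). Without dox-treated replicate 3 it was 0.58 and did not pass either (limma adjusted p = 0.13). The log2 fold change was 0.11 without dox-treated replicate 2 (limma adjusted p = 0.87) and 0.01 with quantile scaling (limma adjusted p = 0.98). The interval with all 6 libraries extends to a rise of 1.05 on the log2 scale, so a moderate change was not detectable with these libraries. *Cish* lies at chr9:107198357-107205115 on the forward strand (NCBIM37), and 740 bases of its exons overlap *Gm17040* and *Gm17041* on the other strand. The use of strand in counting is not given in the sources used here.

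*Socs3* was at 3.35, 1.82 and 2.34 CPM with dox and at 1.28, 1.22 and 0.591 CPM without, from 45, 24 and 36 reads and 16, 16 and 6 reads. Every dox-treated library lay above every untreated one. The means were 2.51 ± 0.776 and 1.03 ± 0.382 CPM (SD, n = 3 each), a log2 fold change of 1.32 (SE 0.37, 95% interval 0.41 to 2.23) or 2.49-fold, which did not pass (limma adjusted p = 0.084, unadjusted p = 0.012). The 6 reads of untreated replicate 3 have an exact Poisson 95% interval of 2.20 to 13.1 reads, which covers counting error only. The gene lies at chr11:117827393-117831361 on the reverse strand (NCBIM37).

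Of the other target genes, *Pim1*, a survival kinase induced by STAT5, was at 98.8, 69.2 and 44.5 CPM with dox and at 34.6, 42.4 and 51.8 CPM without. Replicates 1 and 2 with dox lay above all untreated libraries, and replicate 3 lay within their range. The means were 70.8 ± 27.2 and 42.9 ± 8.64 CPM (SD, n = 3 each), a log2 fold change of 0.67 (SE 0.32, 95% interval −0.11 to 1.45, limma adjusted p = 0.22). Without dox-treated replicate 3 it was 0.97 and passed the threshold (limma adjusted p = 0.044). Without dox-treated replicate 1 it was 0.39 (limma adjusted p = 0.48). *Pim1* lies at chr17:29627757-29632390 on the forward strand (NCBIM37), where 468 bases overlap *Gm16912* on the other strand.

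*Osm*, which encodes the cytokine oncostatin M and is induced by STAT5, was at 7.11, 9.04 and 7.86 CPM with dox and at 8.75, 10.97 and 9.96 CPM without. The groups overlapped, since dox-treated replicate 2 lay above untreated replicate 1. The log2 fold change was −0.31 (SE 0.14, 95% interval −0.66 to 0.05, limma adjusted p = 0.22). *Osm* lies at chr11:4136423-4141029 on the forward strand (NCBIM37).

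**Figure D3:**
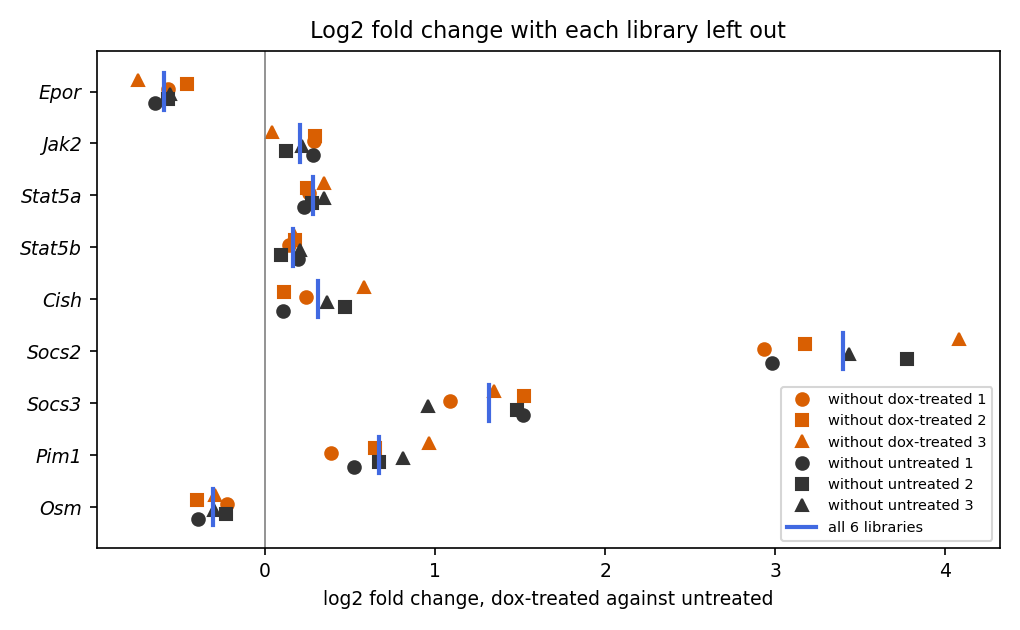
Log2 fold change of dox-treated against untreated libraries (x axis) for the 9 genes (y axis), with all 6 libraries (blue line) and with each library left out in turn (orange for a dox-treated and black for an untreated library left out, the symbol giving its replicate). No gene changes sign, and *Socs2* moves between 2.93 and 4.08, highest without dox-treated replicate 3.

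Dox-treated replicate 3 lay on the untreated side of the other dox-treated libraries for *Epor*, *Stat5a*, *Cish*, *Socs2* and *Pim1*. Leaving it out gave 2 of the 9 genes called higher, *Socs2* and *Pim1*, and 1 called lower, *Epor*, where 14.9% of all genes tested were called higher and 14.0% lower, so that the background rose as well. Over the 6 libraries Pearson's r of log2 CPM was 0.92 between *Stat5a* and *Socs2*, 0.90 between *Stat5a* and *Pim1*, 0.88 between *Socs2* and *Pim1* and −0.89 between *Epor* and *Socs2*, while it was −0.10 between *Epor* and *Jak2*. These values share the 6 libraries and the 2 groups and are a description.

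Levels of different genes were compared as CPM per 1000 bases of the transcript with the longest coding sequence. Other lengths would change these levels and may change their order. The merged exons of *Stat5a*, *Cish* and *Socs2* add up to 7133, 6419 and 9532 bases, beside 3605, 2850 and 4242 in the transcripts used. In untreated MEPs *Epor* was the highest of the 9 genes, at 93.0 ± 6.05 CPM per kb (SD, n = 3), followed by *Stat5a* at 58.5 ± 4.96, *Stat5b* at 36.4 ± 3.0, *Jak2* at 27.6 ± 2.98 and *Pim1* at 21.8 ± 4.38 CPM per kb. The brakes and the cytokine came lower, with *Osm* at 4.35 ± 0.491, *Cish* at 1.65 ± 0.404, *Socs2* at 0.483 ± 0.247 and *Socs3* at 0.404 ± 0.150 CPM per kb. The values of *Jak2* and *Pim1* overlapped, as did those of *Socs2* and *Socs3*, and the other neighbours in this order did not.

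With dox, *Stat5a* at 71.2 ± 5.42 and *Epor* at 62.4 ± 13.0 CPM per kb (SD, n = 3 each) overlapped at the top of the order. *Stat5b* at 40.6 ± 0.957, *Pim1* at 35.9 ± 13.8 and *Jak2* at 32.1 ± 6.78 CPM per kb followed, each overlapping the next. *Socs2* came next at 5.61 ± 3.54 CPM per kb, overlapping *Osm* at 3.52 ± 0.430, ahead of *Cish* at 2.08 ± 0.643 and *Socs3* at 0.982 ± 0.304 CPM per kb.

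The other genes of cytokine signalling were taken from 5 lists with 80 genes, of which 72 were tested. With dox 5 of the 72 rose and 2 fell, or 6.94% and 2.78% beside 4.59% and 3.18% of all genes tested, and their median log2 fold change was 0.08. Without dox-treated replicate 3, 16 rose and 5 fell, where 1801 of all genes tested rose and 1687 fell. Without any one of the other 5 libraries, 1 to 3 rose and 0 to 1 fell, where 92 to 143 of all genes tested rose and 36 to 126 fell, and *Id1* was the one gene called in every alternative that tested it.

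Of 18 cytokine ligands and receptors, 10 were tested and none passed (limma, with 1 higher and 1 lower at an unadjusted p under 0.05). *Epo*, *Thpo*, *Kitl*, *Il5ra*, *Ghr*, *Prlr*, *Osmr* and *Lifr* had no values. *Csf3r*, the receptor for granulocyte colony-stimulating factor and one of the granulocyte and monocyte markers above, was at 5.94 to 14.7 CPM with dox, lowest in replicate 3, and at 23.0 to 36.0 CPM without (log2 fold change −1.52, limma adjusted p = 0.062, and 0.026 without dox-treated replicate 3). *Csf2rb2*, the receptor chain specific to IL-3, was at 40.7, 20.7 and 2.98 CPM with dox and at 1.67, 1.66 and 2.32 CPM without (log2 fold change 2.87, limma adjusted p = 0.11, and 0.0064 without dox-treated replicate 3). Its dox-treated values had the same order over the replicates as those of *Socs2*, with replicate 3 closest to the untreated libraries. *Kit*, the stem cell factor receptor and part of the sort, was at 304 to 323 CPM with dox and at 327 to 486 CPM without (log2 fold change −0.39, limma adjusted p = 0.19).

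Of 9 other JAK and SRC kinases and STATs, *Lyn* rose and none fell. *Lyn*, a SRC family kinase that also acts at the EPO receptor, was at 86.8, 99.1 and 75.9 CPM with dox and at 41.6, 29.7 and 34.1 CPM without (log2 fold change 1.32, SE 0.17, limma adjusted p = 0.016), with no overlap. Its call was lost without dox-treated replicates 1 and 2 and untreated replicate 3 (limma adjusted p = 0.066, 0.062 and 0.071). *Stat3*, which SOCS3 restrains, was at 142, 154 and 77.0 CPM with dox and at 54.8, 39.1 and 49.1 CPM without (log2 fold change 1.34, limma adjusted p = 0.051, and 0.0083 without dox-treated replicate 3). *Stat4*, the mediator of IL-12 signalling, was at 17.3, 15.1 and 7.86 CPM with dox and at 7.27, 3.81 and 6.87 CPM without (limma adjusted p = 0.12, and 0.031 without dox-treated replicate 3).

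Of 17 adaptors and downstream kinases, none passed (limma, with 1 higher and 2 lower at an unadjusted p under 0.05), and their median log2 fold change was −0.02. The smallest p-values were those of *Pik3r1*, the regulatory subunit of PI3 kinase (log2 fold change −0.42, limma adjusted p = 0.077), *Grb2*, the adaptor that leads to RAS (0.41, limma adjusted p = 0.093, and 0.034 without dox-treated replicate 3), and *Shc1*, an adaptor upstream of GRB2 (−0.26, limma adjusted p = 0.13).

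Of 18 other brakes, *Socs5* rose and none fell, with a median log2 fold change of 0.02. *Socs5*, a SOCS box protein, was at 24.5, 20.4 and 22.5 CPM with dox and at 14.3, 10.6 and 13.7 CPM without (log2 fold change 0.81, limma adjusted p = 0.037). The call was lost without any one library other than dox-treated replicate 3, with limma adjusted p between 0.079 and 0.13. *Pias3*, an inhibitor of STAT3, had a log2 fold change of 0.78 (limma adjusted p = 0.073, and 0.017 without dox-treated replicate 3), and *Dok2*, a docking protein downstream of tyrosine kinases, one of 1.34 (limma adjusted p = 0.089).

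**Figure D4:**
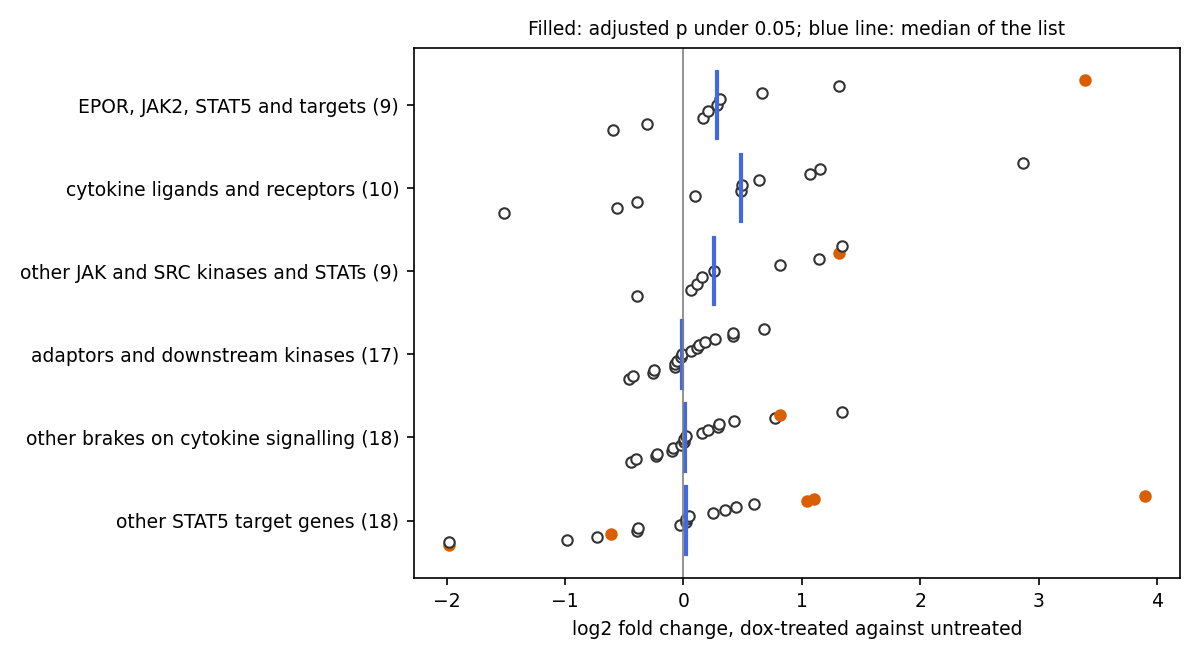
Log2 fold change of dox-treated against untreated libraries (x axis) for each tested gene (points) of the EPO receptor, JAK2, STAT5 and target genes and of 5 further lists of cytokine signalling (y axis, number tested in brackets), filled where the adjusted p over all genes tested is under 0.05, with the median of each list as a blue line. The medians lie between −0.02 and 0.49, and called genes are seen on both sides of 0 in the list of other STAT5 target genes.

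Of 18 other genes described as STAT5 targets in blood cells, 3 rose and 2 fell, with a median log2 fold change of 0.02. *Id1*, an inhibitor of basic helix-loop-helix factors, had 64, 68 and 56 reads with dox and 4, 4 and 2 without (log2 fold change 3.90, SE 0.22, limma adjusted p = 0.0026). The untreated reads are near the floor of 3 reads, so the size of this change depends on the 0.5 reads added. *Pim2*, the sister kinase of *Pim1*, was at 22.3, 15.3 and 14.2 CPM with dox and at 7.27, 8.39 and 9.05 CPM without (log2 fold change 1.04, limma adjusted p = 0.039), a call that was lost without any one library other than dox-treated replicate 3 (limma adjusted p between 0.078 and 0.11). Over all alternatives *Pim2* passed in 9 of 17, with limma adjusted p up to 0.14. All 3 dox-treated values of *Pim2* lay above the untreated ones, replicate 3 included, which was not so for *Pim1*. *Trib3*, a pseudokinase that is also a gene of the ATF4 stress response, had 28 to 30 reads with dox and 10 to 14 without (log2 fold change 1.10, limma adjusted p = 0.018). Its call was lost without dox-treated replicates 1 and 2 and untreated replicates 2 and 3 (limma adjusted p = 0.074, 0.077, 0.055 and 0.077), and over all alternatives it passed in 8 of 16, with limma adjusted p up to 0.21.

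*Ccnd3*, the cyclin that sets the number of divisions late in red cell maturation, fell from 169 ± 15.6 to 111 ± 11.2 CPM (SD, n = 3 each, log2 fold change −0.61, limma adjusted p = 0.047). The call of *Ccnd3* ended when any one library other than dox-treated replicate 3 was left out (limma adjusted p between 0.10 and 0.17), and it passed in 10 of 17 alternatives in all. *Spry1*, an inhibitor of RAS signalling, fell from 2.83 ± 0.634 to 0.751 ± 0.349 CPM (SD, n = 3 each, log2 fold change −1.98, limma adjusted p = 0.029), from 25 to 45 reads without dox and 7 to 15 with it. The call of *Spry1* held without dox-treated replicate 2 or 3 and ended without any one of the other 4 libraries (limma adjusted p between 0.086 and 0.098), and it passed in 10 of 16 alternatives in all.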

How the data were processed

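RNA from MEPs sorted from dox-treated and untreated *Nanog* transgenic mice was sequenced, with 3 libraries per group. Per the paper's methods and the submitters' processing notes, the authors used Cutadapt to trim adapters, RSEM to map to and quantify Ensembl transcripts of NCBIM37 (mm9), and limma for normalization. The deposited table holds log2 CPM for 12101 genes, with 0.5 added to each read number and a library size scaled by the authors. How library sizes were scaled, how low genes were removed and whether counting used strand is not given in the sources used here.

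Whole read numbers behind each value were worked out from the steps of the scale (within 0.001 reads of a whole number for all genes), and depth and intervals rest on them. CPM printed here include the 0.5 reads, and fold changes on this scale understate the change of genes with few reads.

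The main test fitted the deposited log2 values by limma's lmFit and eBayes (limma 3.58.1 under R 4.3.3), without block, weights or trend. It took the 12088 genes that reached 1 CPM in 3 or more libraries, and the Benjamini–Hochberg adjustment ran over all of them with a threshold of 0.05. The fit was tried on simulated reads with the same spread for every gene and no deviating library. That trial does not show how the fit behaves on these libraries. For each of the 9 genes an exact permutation test, two-sided, was added. Count models were not run, though the voom alternatives started from the recovered read numbers.

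The genes described and all lists were chosen with earlier results of these data known. Named were all 10 genes, in each pathway list every gene past the threshold and, where fewer than 3 passed, those with the smallest p until 3 were named, the 3 genes most like *Epor*, *Nanog*, and marker genes beside a result. Positions are from the NCBIM37 annotation (12067 of the listed genes matched). Promoters are from a set of RefSeq windows (GRCm38.p6), which held 8 of the 10 genes and lacked *Socs2* and *Osm*. Transcript lengths are those of the transcript with the longest coding sequence. Alternatives changed the number of reads added, the filter, the scaling, the variance model and the weights, added the replicate number as a block, or left out each library in turn. Python 3.11.15 with pandas 2.3.3, numpy 2.4.6, scipy 1.17.1 and matplotlib 3.10.9 wrote the tables and drew the figures.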

Additional observations from a re-analysis of the deposited data

How the results depend on the processing

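All 9 genes kept the direction of their fold change under every alternative run, but its size moved. With quantile scaling the log2 fold change went from 0.31 to 0.01 for *Cish*, from −0.31 to −0.57 for *Osm* and from 0.16 to 0.30 for *Stat5b*. *Socs2* passed the threshold in 10 of 17 alternatives, with limma adjusted p between 0.0021 and 0.15. It missed it with voom precision weights (adjusted p = 0.093), with the block, and when any one library other than dox-treated replicate 3 was left out. *Epor* passed in 3 of 17 (adjusted p between 0.0069 and 0.23), *Pim1* in 2 (0.031 to 0.48), *Stat5a* in 1 (0.035 to 0.42) and *Socs3* in 1 of 16 (0.025 to 0.22), since its level is under the filter of 5 CPM. *Jak2*, *Stat5b*, *Cish* and *Osm* passed in none.

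Array quality weights called 4 of the 9 genes higher and 1 lower, 20 and 12 of the other pathway genes, and 2515 and 2601 of all genes. A mean-variance trend called 1 of the 9 genes higher and 1 lower, 8 and 6 of the other pathway genes, and 909 and 747 of all genes. Voom precision weights called 0 of the 9 genes, 5 of the other pathway genes higher and 4 lower, and 615 and 570 of all genes. Quantile scaling called 1 of the 9 genes higher and 0 lower, 5 and 4 of the other pathway genes, and 648 and 537 of all genes. Leaving out each library in turn gave 0 to 2 of the 9 genes higher and 0 to 1 lower, 1 to 16 and 0 to 5 of the other pathway genes, and 92 to 1801 and 36 to 1687 of all genes. The highest counts came without dox-treated replicate 3. The cause of these shifts was not tested. Library sizes taken as the reads on listed genes moved the median log2 fold change of all genes from −0.03 to 0.08.

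With the replicate number as a block, 53 genes were called higher and 29 lower in place of 555 and 384, none (0) of the 9 genes, and 1 of the other pathway genes higher and 0 lower. The limma adjusted p was 0.11 for *Socs2*, 0.081 for *Lyn*, 0.096 for *Socs5*, 0.14 for *Pim2*, 0.086 for *Trib3*, 0.18 for *Ccnd3* and 0.089 for *Spry1*. With voom precision weights and the same block, 575 genes were called higher and 351 lower, 1 of them *Socs2* (limma adjusted p = 0.012). Same-numbered libraries deviated from their group means with correlations of 0.018, −0.121 and −0.299, beside −0.204 to 0.238 for the other pairs. With 3 libraries per group these correlations cannot decide whether the numbers pair the libraries.

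With 3 libraries per group, the 95% intervals of *Jak2*, *Stat5b*, *Cish* and *Osm* include 0 and reach 0.65, 0.42, 1.05 and −0.66 on the log2 scale. *Socs3*, *Cish* and *Id1* rest on at most 101 reads per library.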
